A study of Rattus norvegicus with 10 samples.

Results

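Caveolin-1 (Cav1), caveolin-2 (Cav2) and cavin-1 (Cavin1, once called Ptrf) were followed in rat liver on 5 diets. The members were all probe sets that the platform annotation pairs with one of these 3 symbols. Of 14217 gene symbols on the array, 2 of the 3 were found: the annotation gave 4 probe sets for Cav2, 3 for Cav1 and 0 for Cavin1, that is, 7 of the 31042 probe sets left after removing 57 controls. A probe set is a group of short probes on an Affymetrix array that together report one transcript, as 1 signal per array. The genes were chosen by their MAS5 signals on these same arrays, namely the difference of a Cav2 probe set between fish oil and the other fats. Every fish oil value of a member below is therefore a description with no test, while comparisons among the other diets were tested. The choosing difference also used the coconut fat, olive oil and lard arrays. Tests of these diets against chow or against each other are therefore not independent of the choice. The gene lists below were also chosen with earlier results of these data known, so their tests are not independent of those results.

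The arrays measured liver RNA of male Wistar rats killed after an overnight fast, at the end of 12 weeks on a diet. The groups were fish oil (named cod liver oil in the design text), coconut fat, olive oil and lard, each a high-fat diet with 42% of its energy as fat, and standard chow, with 2 arrays each. No fat share is given for chow, so differences from chow cannot be told apart into type of fat and amount of fat. The labels do not say whether an array holds 1 rat or a pool, so each p-value below measures the spread between these arrays only. The median signal of an array was 28.7 to 31.8, and 36.7 on the second lard array.

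Caveolae are small flask-shaped pits of the plasma membrane, rich in cholesterol, that are abundant in endothelial cells, adipocytes and muscle. Cav1 is the membrane protein that scaffolds them. Cav2 joins Cav1 in mixed oligomers and relies on Cav1 to leave the Golgi for the cell surface. Cavin1 is a cytosolic coat protein without which caveolae do not form. In mice, loss of Cav1 reduces fat stores and alters the handling of lipids by the liver, where hepatocytes hold little caveolin compared with the vessel lining.

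Cav2 and Cav1 lie next to each other on chromosome 4 of the GRCr8 build, on the same strand. Cav2 spans 46582681 to 46590058 and Cav1 spans 46606538 to 46639616, with 16479 bases between them. Cavin1 lies apart, on chromosome 10 from 86384401 to 86398240. The start regions of the neighbouring pair are shown so that their letters can be compared. The windows come from RefSeq and cover 250 bases before and 50 bases after the annotated start, chr4:46582431-46582730 for Cav2 and chr4:46606288-46606587 for the upstream start of Cav1, both on the plus strand. Capitals mark GGGCGG, the GC box, and TGACTCA, the AP-1 site, on either strand.
Cav2 promoter window: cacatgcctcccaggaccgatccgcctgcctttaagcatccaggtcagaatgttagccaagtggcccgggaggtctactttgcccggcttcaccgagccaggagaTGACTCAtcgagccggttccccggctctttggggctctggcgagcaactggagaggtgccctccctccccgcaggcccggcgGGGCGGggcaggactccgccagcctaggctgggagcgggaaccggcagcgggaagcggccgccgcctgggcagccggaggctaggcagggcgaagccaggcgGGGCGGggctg
Cav1 promoter window: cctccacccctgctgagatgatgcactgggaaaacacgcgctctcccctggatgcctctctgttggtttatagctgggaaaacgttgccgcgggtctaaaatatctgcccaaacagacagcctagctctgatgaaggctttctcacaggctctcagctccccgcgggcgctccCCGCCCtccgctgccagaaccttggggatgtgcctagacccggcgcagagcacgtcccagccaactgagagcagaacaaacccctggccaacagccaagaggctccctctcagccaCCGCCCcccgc
The Cav2 window held 2 GC boxes and 1 AP-1 site, and the Cav1 window held 2 GC boxes and no AP-1 site. Over all 33469 RefSeq promoter windows of the same length, 33.1% held a GC box and 4.63% an AP-1 site. The share of G and C was 70.3% in the Cav2 window and 61.7% in the Cav1 window, against a median of 51.7% over all windows. TATAAA, the letters of the TATA box, was found once in the Cav1 window (14.2% of all windows hold it) and not in that of Cav2. The match was on the minus strand, opposite to the gene, at position -184 from the start. CCAAT and CACGTG, present in 37.5% and 6.42% of windows, were in neither. The window of a second, downstream start of Cav1, not shown, held no match to any of these motifs. The 2 motifs in capitals do not overlap, and a match is only a match of letters.

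Cav2 signal was lowest under fish oil and highest under lard and olive oil, with coconut fat and chow between, on all 4 of its probe sets. All signals are MAS5 values on a linear scale, scaled by the authors so that the trimmed mean of every array is about 100. The order by mean was lard or olive oil first and the other of these next, and the arrays of these diets overlapped on each probe set. The olive oil and lard arrays together did not overlap with those of coconut fat on any of the 4.

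The widest spread of Cav2 levels over the diets was on probe set 1390800_a_at. It read 24.6 and 34.4 on the fish oil arrays, 85.7 and 80.5 on coconut fat, 332 and 120.8 on olive oil, 227.7 and 249.6 on lard, and 91 and 59.8 on chow. Both fish oil arrays lay below all 8 others. The mean was 29.5 ± 6.93 under fish oil, 83.1 ± 3.68 under coconut fat, 226.4 ± 149 under olive oil, 238.65 ± 15.5 under lard and 75.4 ± 22.1 under chow (SD, n = 2 each).

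Probe set 1377642_at, designed from the same sequence record as 1390800_a_at, read 51.9 and 71.6 on fish oil, 62.3 and 108.5 on coconut fat, 380.2 and 136.2 on olive oil, 138.4 and 240.1 on lard, and 111.4 and 70.1 on chow. Here the fish oil arrays were low but overlapped with coconut fat and with chow. Its means were 61.75 ± 13.9 under fish oil, 85.4 ± 32.7 under coconut fat, 258.2 ± 173 under olive oil, 189.25 ± 71.9 under lard and 90.75 ± 29.2 under chow (SD, n = 2 each).

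Probe set 1370135_at read 48.3 and 45.1 on fish oil, 44.5 and 56.1 on coconut fat, 141.2 and 60.6 on olive oil, 96.2 and 118.8 on lard, and 58.9 and 56.7 on chow. Fish oil overlapped with coconut fat alone on this probe set, and the lower olive oil array lay close to chow. Probe set 1386261_x_at, whose suffix marks probes that can also match other sequences, read 23.3 and 19.8 on fish oil, 23.1 and 42.8 on coconut fat, 90.7 and 48.4 on olive oil, 58.8 and 77.6 on lard, and 31.9 and 43.1 on chow. Again the 4 olive oil and lard arrays were above the other 6.

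**Figure D1:**
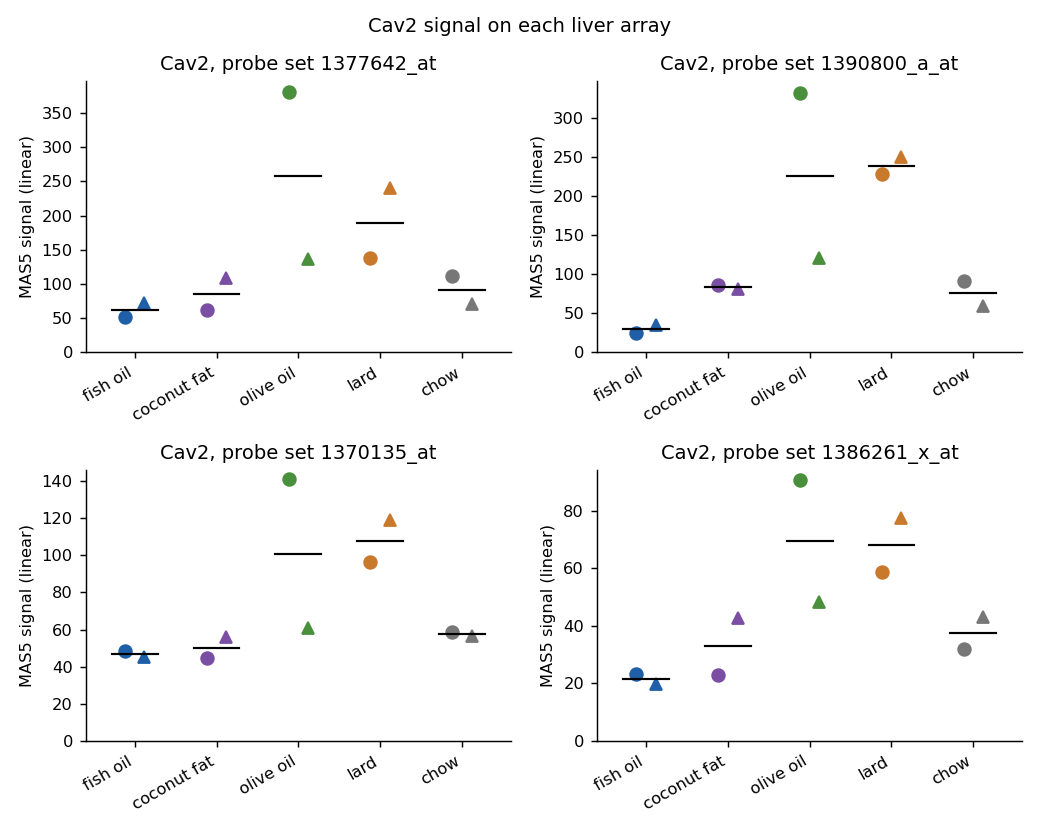
MAS5 signal (linear, vertical axis) of the 4 Cav2 probe sets on each array by diet (horizontal axis); circles are replicate 1, triangles replicate 2, and the bar is the mean of the 2 arrays. On every panel the lard and olive oil arrays are the highest 4, and the first olive oil array exceeds the second by 1.87 to 2.79 times.

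The olive oil arrays differed from each other more than those of any other diet on each of the 4 probe sets. The ratio of the higher to the lower olive oil array was 2.75 on 1390800_a_at, 2.79 on 1377642_at, 2.33 on 1370135_at and 1.87 on 1386261_x_at. For lard the same ratios ran from 1.10 to 1.73, and for coconut fat from 1.06 to 1.85. The coconut fat ratio of 1.85 was on 1386261_x_at, close to that of olive oil. In these bulk liver samples, more cells that express Cav2 and more Cav2 RNA per cell cannot be told apart.

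Differences were fitted with limma on log2(signal + 3.1), so the fold changes of dim probe sets are understated. In each comparison 18625 probe sets were tested, the 7 members among them, and a call needs a Benjamini-Hochberg adjusted p under 0.05. Fish oil minus the mean of coconut fat, olive oil and lard gave log2 differences for Cav2 of -2.33 (SE 0.32, 5.02-fold lower) on 1390800_a_at, -1.27 (SE 0.38) on 1377642_at, -1.17 (SE 0.32) on 1386261_x_at and -0.73 (SE 0.28) on 1370135_at. The first of these is the value behind the choice of the genes, so no test of it is given. Over all probe sets, 0.236% were called lower in limma's fit and 0.424% in either direction. Of the 4 Cav2 probe sets, only 1390800_a_at had fish oil arrays below all 6 of the other fats, which 6.8% of probe sets did. Nothing is read from this, as it is the probe set that chose the genes.

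Against chow, the Cav2 log2 differences of fish oil were -1.26 (SE 0.39) on 1390800_a_at, -0.71 (SE 0.40) on 1386261_x_at, -0.51 (SE 0.46) on 1377642_at and -0.29 (SE 0.35) on 1370135_at. The arrays did not overlap on 3 of 4, all lower under fish oil, as on 19% of all probe sets. The difference on 1377642_at was -0.19 without the first chow array and -0.84 without the second. The comparisons with the other fats and with chow share the fish oil arrays.

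Coconut fat set against lard and olive oil is a contrast that leaves fish oil out. Its arrays all entered the difference that chose the genes, so it is not independent of the choice. Cav2 averaged 83.1 under coconut fat and 232.525 under lard and olive oil on 1390800_a_at. The log2 difference was -1.36 (SE 0.34) on 1390800_a_at, -1.28 (SE 0.40) on 1377642_at, -1.02 (SE 0.34) on 1386261_x_at and -0.95 (SE 0.30) on 1370135_at. On 4 of 4 probe sets both coconut fat arrays lay below all 4 lard and olive oil arrays, as on 9.37% of all probe sets. In limma's test 0 of 4 were called, with adjusted p from 0.521 to 0.634, and the share called among all probe sets was 0%. All 4 had an unadjusted p under 0.05, against 6.71% of all probe sets, and the 4 report 1 gene. Without the first coconut fat array the difference on 1386261_x_at was -0.61.

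Lard against chow gave Cav2 log2 differences of 1.65 (SE 0.39) on 1390800_a_at, 1.02 (SE 0.46) on 1377642_at, 0.85 (SE 0.35) on 1370135_at and 0.81 (SE 0.40) on 1386261_x_at. Both lard arrays were above both chow arrays on 4 of 4 probe sets, as on 23% of all probe sets. The limma test called 0 of 4, with adjusted p from 0.391 to 0.638, and 0.0161% of all probe sets. An unadjusted p under 0.05 was reached by 3 of 4, against 7.99% of all. Without the second lard array the difference on 1377642_at was 0.63, and without the second chow array it was 0.70.

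Olive oil against chow gave 1.41 (SE 0.39) on 1390800_a_at, 1.34 (SE 0.46) on 1377642_at, 0.79 (SE 0.40) on 1386261_x_at and 0.65 (SE 0.35) on 1370135_at, again as log2 differences. Its arrays were higher without overlap on 4 of 4 probe sets (20.5% of all were), 0 of 4 were called (0.0268% of all), with limma adjusted p from 0.334 to 0.660, and 2 had an unadjusted p under 0.05 (8.38% of all). Their size depends on the first olive oil array. Without it they were 0.69, 0.61, 0.36 and 0.07 in the same order of probe sets, and without the second olive oil array 2.12, 2.07, 1.22 and 1.24. The lard and olive oil comparisons share the chow arrays, and their lard and olive oil arrays entered the difference that chose the genes.

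Cav2 was close to chow under coconut fat. The log2 differences were 0.16 (SE 0.39) on 1390800_a_at, -0.10 (SE 0.46) on 1377642_at, -0.20 (SE 0.35) on 1370135_at and -0.21 (SE 0.40) on 1386261_x_at, with limma adjusted p of 0.985 or more. These errors leave room for a change in either direction. Olive oil against lard gave -0.25 (SE 0.39), 0.32 (SE 0.46), -0.20 (SE 0.35) and -0.02 (SE 0.40) in the same order, and each of the 4 signs turned when 1 olive oil array was left out (3 without the second, 1 without the first). In both comparisons limma called 0 of 4 Cav2 probe sets and 0% of all, and 0 of 4 reached an unadjusted p under 0.05 (5.43% and 6.23% of all did).

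**Figure D2:**
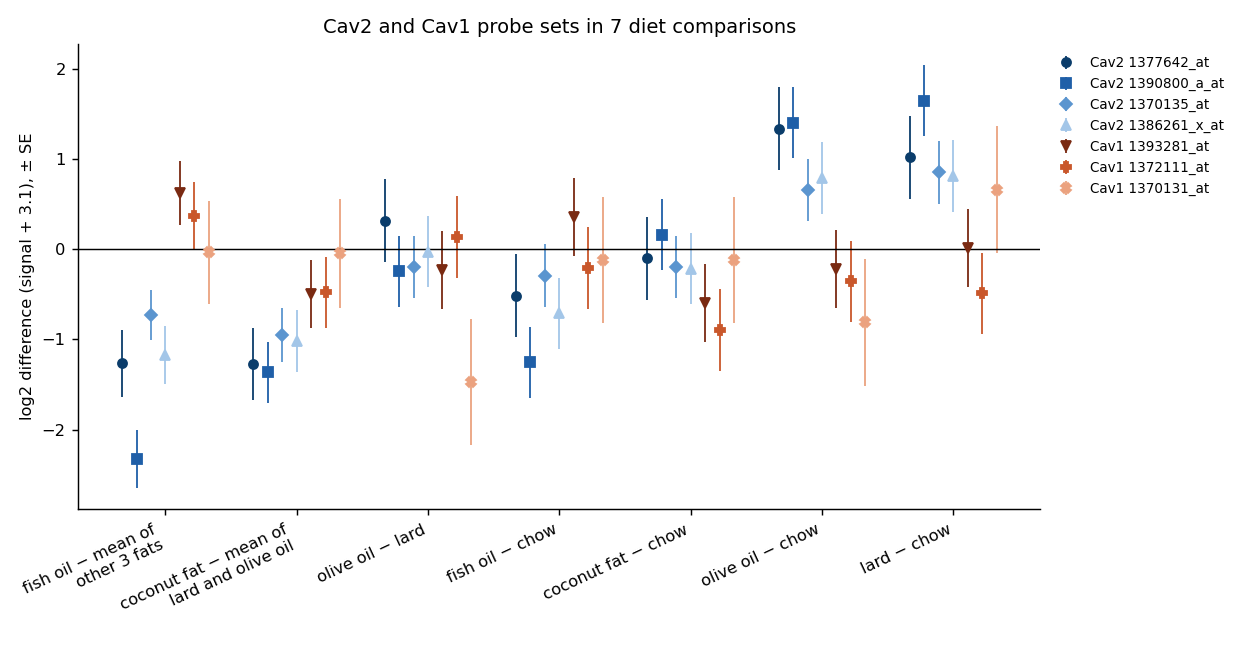
Log2 difference (vertical axis, log2 of signal + 3.1, ± SE of the fit) of each Cav2 (blue) and Cav1 (orange) probe set in the 7 diet comparisons (horizontal axis), each named as first diet minus second. Cav2 lies below 0 on all 4 probe sets for fish oil and for coconut fat against lard and olive oil, and above 0 for lard and for olive oil against chow, while the Cav1 probe sets of a comparison differ in size and often in sign.

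Cav1, the scaffold itself, showed no order of the diets that its 3 probe sets shared. Probe set 1393281_at read 51.8 and 38.6 on fish oil, 20.9 and 22.3 on coconut fat, 33.4 and 25.2 on olive oil, 27 and 44 on lard, and 50 and 23.1 on chow. Fish oil was the highest mean, at 45.2 ± 9.33, and coconut fat the lowest, at 21.6 ± 0.99, against 36.55 ± 19.0 under chow (SD, n = 2 each). The chow arrays alone covered most of the range of all 10.

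Probe set 1372111_at of Cav1 read 36.7 and 29.7 on fish oil, 12.4 and 29.2 on coconut fat, 24 and 36.1 on olive oil, 32.5 and 21.7 on lard, and 36.6 and 40.7 on chow. Chow was highest here and coconut fat lowest again. Probe set 1370131_at read 23.1 and 21.9 on fish oil, 14.5 and 34.3 on coconut fat, 3.8 and 33.4 on olive oil, 36.6 and 45.8 on lard, and 23.9 and 25.6 on chow. Lard was highest on this one, and the first olive oil array read far below the second. Of the 30 Cav1 readings, 2 did not exceed 12.8, the top reading of 3 control probe sets for the bacterial trp genes, which serve here as a measure of background.

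**Figure D3:**
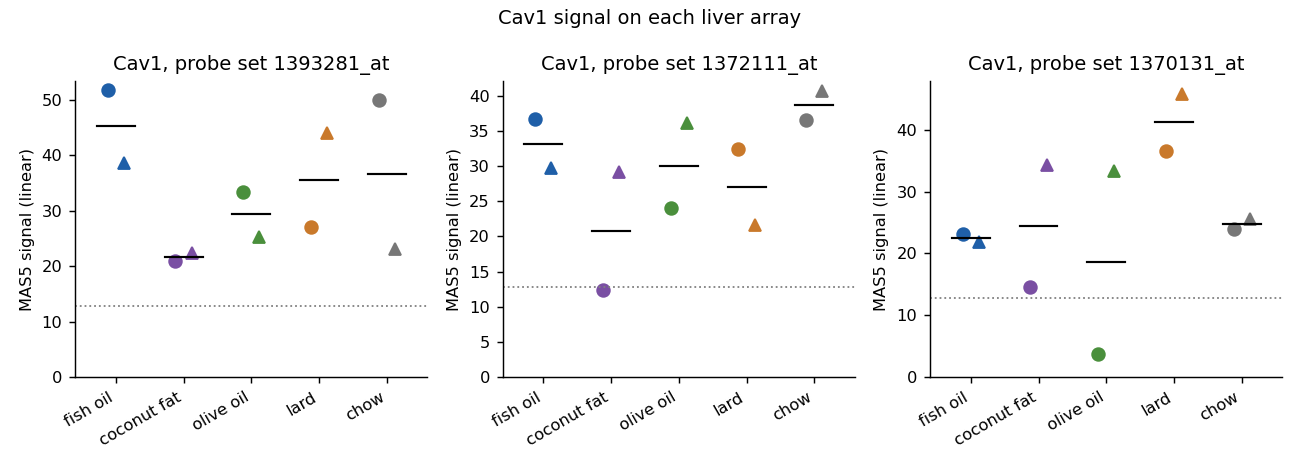
MAS5 signal (linear, vertical axis) of the 3 Cav1 probe sets on each array by diet (horizontal axis); circles are replicate 1, triangles replicate 2, the bar is the mean of 2 arrays, and the dotted line is the highest trp control signal, 12.8. The diet with the highest mean is fish oil, chow and lard on the 3 panels, and 1 olive oil and 1 coconut fat reading lie below the line.

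In the 5 comparisons without fish oil, limma called 0 of 3 Cav1 probe sets, where 0% to 0.0268% of all probe sets were called, and 0 of 3 had an unadjusted p under 0.05, where 5.43% to 8.38% of all did. Fish oil minus the other 3 fats gave log2 differences of 0.62 (SE 0.35) on 1393281_at, 0.37 (SE 0.37) on 1372111_at and -0.03 (SE 0.57) on 1370131_at. Against chow, fish oil gave 0.36 (SE 0.43), -0.21 (SE 0.45) and -0.12 (SE 0.70) in that order. Coconut fat minus chow was below 0 on 3 of 3, at -0.60 (SE 0.43), -0.90 (SE 0.45) and -0.12 (SE 0.70), with limma adjusted p of 0.945 or more. Single arrays moved these widely. On 1393281_at the difference was -0.09 without the first chow array and -1.10 without the second. Without the first coconut fat array it was -0.37 on 1372111_at and 0.43 on 1370131_at, and without the second -1.43 and -0.66.

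Coconut fat minus lard and olive oil was also below 0 on all 3 Cav1 probe sets, as it was on all 4 of Cav2, at -0.49 (SE 0.37) on 1393281_at, -0.48 (SE 0.39) on 1372111_at and -0.04 (SE 0.61) on 1370131_at. Leaving out the first coconut fat array gave 0.05 on 1372111_at, and leaving out an array moved 1370131_at between -0.64 and 0.56. Olive oil minus chow was below 0 on 3 of 3, at -0.21 (SE 0.43), -0.36 (SE 0.45) and -0.81 (SE 0.70) in that order, where Cav2 was above 0 on 4 of 4. Without the first chow array the first of these was 0.29, and without the first olive oil array the other 2 were -0.09 and 0.39. Lard minus chow gave 0.01 (SE 0.43), -0.49 (SE 0.45) and 0.66 (SE 0.70). The olive oil difference from lard on 1370131_at, -1.47 (SE 0.70, adjusted p = 0.807 in limma's test), rests on the olive oil reading of 3.8: without that array it was -0.27. Whether Cav1 and Cav2 responded differently was not tested.

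The probe sets of Cav2 correlated over the 10 arrays more closely than those of Cav1. Between the 6 pairs of Cav2 probe sets, Pearson's r of the log2 values ran from 0.89 to 0.93, and Spearman's rho from 0.83 to 0.95. With the diet means taken out, r ran from 0.42 to 0.87. The first olive oil array was the higher on all 4 Cav2 probe sets and the second lard array was the higher on all 4, while under fish oil, coconut fat and chow the probe sets differed in which array was the higher. Between the 3 pairs of Cav1 probe sets r ran from 0.01 to 0.32, and between the 12 pairs of a Cav1 and a Cav2 probe set from -0.30 to 0.14. Spearman's rho ran from -0.02 to 0.31 for the Cav1 pairs and from -0.48 to 0.41 for the mixed pairs. For Cav1 probe set 1370131_at, with its olive oil reading of 3.8, the 2 measures differed in sign. With the 4 Cav2 probe sets its r was -0.26 to -0.08 and its rho 0.22 to 0.41. With the diet means taken out these ranges were -0.27 to 0.65 for the Cav1 pairs and -0.83 to 0.60 for the mixed pairs. These are descriptions over 10 arrays that share diets, without p-values. With the diet means taken out, the 2 arrays of a diet mirror each other. Those r therefore rest on only 1 difference for each of the 5 diets.

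**Figure D4:**
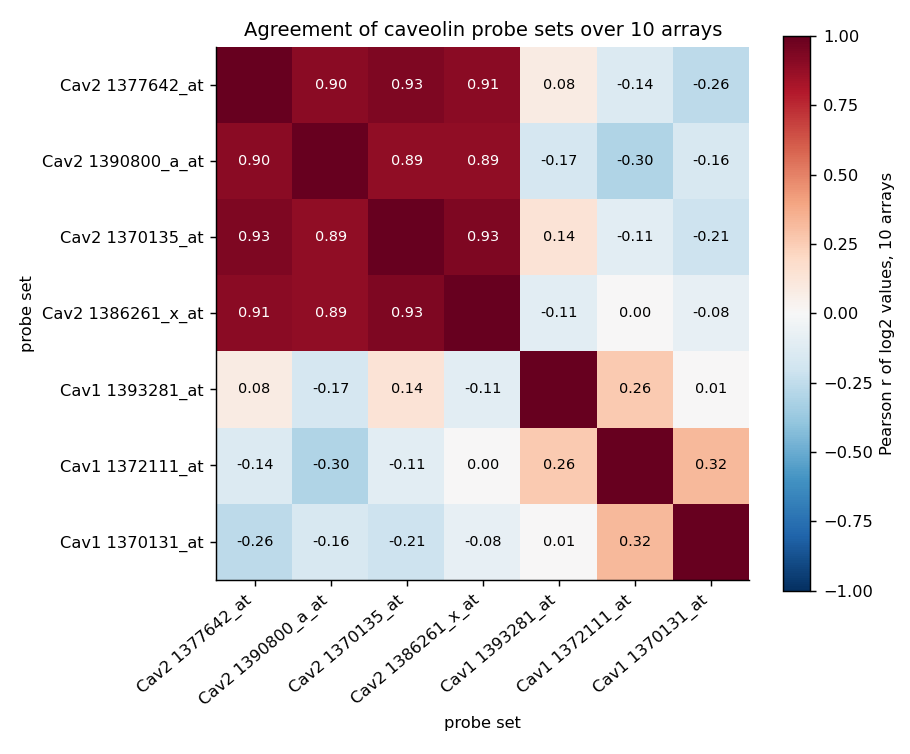
Pearson's r (colour, -1 to 1) of log2 values between each pair of the 7 caveolin probe sets (both axes) over the 10 arrays. The 6 Cav2 pairs are between 0.89 and 0.93, and no pair that includes a Cav1 probe set exceeds 0.32.

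The mean over all probe sets of a gene gave one value each. For Cav2 the log2 difference was -1.37 (SE 0.30) for fish oil against the other 3 fats, -0.69 (SE 0.36) for fish oil against chow, 1.08 (SE 0.36) for lard against chow, 1.05 (SE 0.36) for olive oil against chow, and -1.15 (SE 0.31) for coconut fat against lard and olive oil. Limma's adjusted p was 0.500, 0.467 and 0.584 in the last 3. For Cav1 the same mean was 0.32 (SE 0.36) for fish oil against the other 3 fats and 0.01 (SE 0.44) against chow.

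No probe set of the array annotation used carried Cavin1, by its symbol, its gene identifier or its RefSeq accessions, so Cavin1 was not analysed here. Its relatives were read instead. Cavin2, which helps shape caveolae, had a signal of 80.75 ± 9.12 under fish oil, 114.35 ± 3.04 under coconut fat, 109.3 ± 12.3 under olive oil, 105.75 ± 0.21 under lard and 103.5 ± 15.6 under chow (SD, n = 2 each). Its log2 difference was -0.43 (SE 0.17, limma adjusted p = 0.347) for fish oil against the other 3 fats. Both fish oil arrays lay below the 6 others, as on 6.8% of all probe sets. Cavin3, which binds Cavin1 in the coat, gave -0.28 (SE 0.28), with overlap.

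The other genes of caveolae were read from a list of 16, of which 14 were on the array and 11 passed the filter on dim signals. Limma called 0 of their 15 tested probe sets in any of the 7 comparisons, where 0% to 0.424% of all probe sets were called. For fish oil against the other 3 fats, 3 of the 15 had an unadjusted p under 0.05 (11.8% of all probe sets did), and for fish oil against chow 1 of 15 had (7.63% of all did, and 0.156% were called). For fish oil against the other 3 fats 4 genes were above 0 and 7 below, by the brightest probe set of each, with a median log2 difference of -0.18 against -0.02 over all probe sets tested. Next to Cavin2, the largest differences by the brightest probe set were for Ehd2, the ATPase at the caveolar neck, at 0.45 (SE 0.25), Pacsin2, which bends membranes, at 0.41 (SE 0.16), and Ehd4, an endosomal relative of Ehd2, at -0.40 (SE 0.31). A further Ehd4 probe set gave 1.24 (SE 0.58), so the probe sets of Ehd4 differ in sign. Ehd1, another endosomal relative, gave -0.02 (SE 0.16) on its brightest probe set and -0.55 (SE 0.17, limma adjusted p = 0.235) on a dimmer one. On the dimmer one both fish oil arrays lay below the 6 others, as on 6.8% of all probe sets. Ehd1 is named here after its values were seen.

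**Figure D5:**
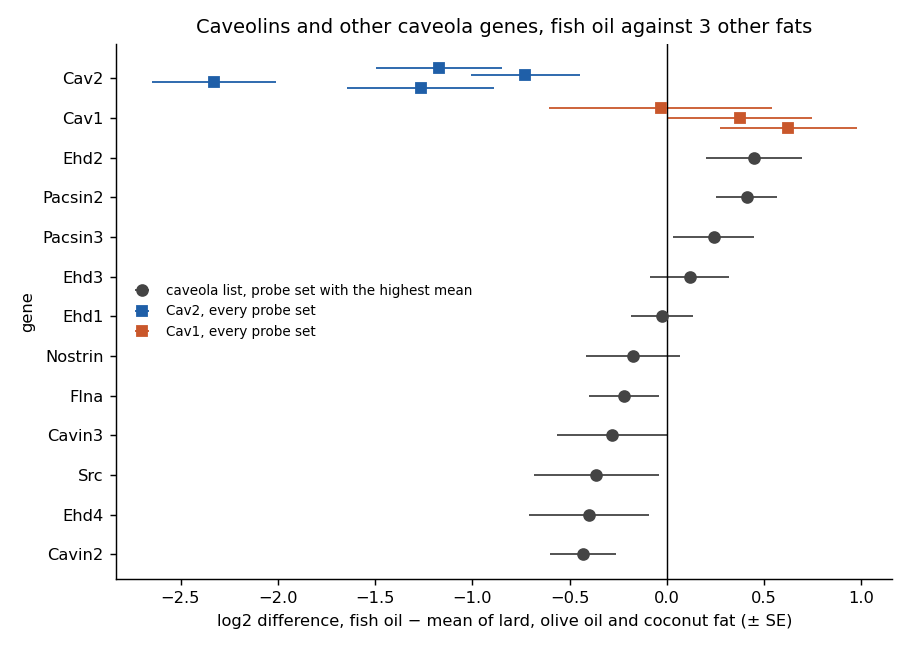
Log2 difference (horizontal axis, ± SE of the fit) between fish oil and the mean of lard, olive oil and coconut fat for every Cav2 and Cav1 probe set and for the brightest probe set of 11 other caveola genes (vertical axis). The other caveola genes lie between -0.43 and 0.45, and the 4 Cav2 probe sets between -2.33 and -0.73.

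A second list held 15 genes of proteins found in caveolae or bound to Cav1, of which 13 were on the array and 12 were tested. Like the first list, it was chosen with earlier results of these data known, which limits what its tests can show. Limma called 0 of 21 probe sets in any comparison, and for fish oil against the other 3 fats 4 genes were above 0 and 8 below, with a median of -0.12 and 4 of 21 probe sets at an unadjusted p under 0.05. Of all probe sets, 0.424% were called there and 11.8% had an unadjusted p under 0.05. Cd36, a fatty acid transporter that sits in caveolae of fat cells, had a signal of 932.55 ± 28.4 under fish oil, 188.7 ± 99.6 under coconut fat, 489.35 ± 170 under olive oil, 366 ± 195 under lard and 162.25 ± 60.2 under chow (SD, n = 2 each). Its log2 difference was 1.60 (SE 0.35, limma adjusted p = 0.0922) for fish oil against the other 3 fats and 2.55 (SE 0.43, limma adjusted p = 0.0540) against chow. Both fish oil arrays were higher without overlap in each, as on 5.96% and 17.5% of all probe sets. The 2 fish oil arrays were the highest for Cd36, and the fish oil mean was the lowest on each Cav2 probe set. Against chow, the Cd36 log2 difference was 1.10 under lard, 1.58 under olive oil and 0.16 under coconut fat (SE 0.43 each). A relation between Cd36 and Cav2 was not tested. Pdgfrb, a growth factor receptor of stellate cells, gave -0.95 (SE 0.35), Bmpr2, a bone morphogenetic protein receptor, -0.47 (SE 0.39) and Egfr, the epidermal growth factor receptor, -0.38 (SE 0.16) for fish oil against the other 3 fats, none of them called. Egfr averaged 705.5 under fish oil, 698.55 under lard and 787.8 under coconut fat, but 1399 under olive oil. Bmpr2 averaged 35.5 under fish oil and 35.4 under coconut fat, with 53.1 under lard and 74.6 under olive oil.

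Markers of the cells that could carry caveolins were read on the same arrays. The 8 hepatocyte markers were all above the trp control level on every array, with a summed signal between 55568.4 and 64768.3, the highest on the first olive oil array, so the liver label held. Of the 21 endothelial markers, 19 to 21 were above that level on an array, and they summed to 3574.1 and 3531.2 on fish oil, 3272 and 3514.9 on coconut fat, 3308.4 and 3610 on olive oil, 2855 and 3258.1 on lard, and 3819.6 and 3294.6 on chow. Lard, with high Cav2, held the lowest of these sums, while olive oil, also with high Cav2, did not. Whether endothelial cells have a part in the Cav2 values was not tested. The adipocyte markers were mixed. Over all arrays Adipoq read 1.2 to 18.8, Fabp4 1.2 to 23.2, Lep 5.4 to 30.3 and Plin1 1.5 to 32.2. Each of these fell below the trp control level on at least 1 array. The others stayed above it, with Cidec at 329.9 to 609.9, Lipe at 109.6 to 257.4 and Cfd at 68.3 to 156.7. Lpl read 35.6 to 72.7 and Pparg 18.3 to 75.9. The 9 measured adipocyte markers summed to between 695.5 and 991.5, lowest on the chow arrays.

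The 9 Kupffer cell and macrophage markers summed to 2681.1 and 2920.4 on fish oil, 3240.1 and 3171.1 on coconut fat, 4142.7 and 3095.7 on olive oil, 3803.9 and 3153.9 on lard, and 3660.2 and 3902.5 on chow. The fish oil arrays were the lowest 2, and the first olive oil array, which had the highest Cav2, was the highest. For fish oil against the other 3 fats, 8 of 9 were below 0, with a median log2 difference of -0.27 against -0.02 over all probe sets tested. Limma called 0 of them, and 0.424% of all probe sets. Chow had high sums beside a middle level of Cav2. The part of these cells in the Cav2 values was not tested. The 13 stellate and fibroblast markers summed to 1613 and 1704.2 on olive oil, the highest 2 arrays, and 1514.6 and 1329.4 on lard. On the other arrays they summed to between 1376.6 and 1530.6. The 6 smooth muscle markers summed to between 658.1, on the first lard array, and 850.8, on the first olive oil array. Sums were 54.8 to 124.2 for 3 mesothelial and 124.1 to 306.9 for 5 cholangiocyte markers. A part of any of these cells was not tested. None of the marker lists held a called probe set in any comparison, where 0% to 0.424% of all probe sets were called.

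The genes on either side of the caveolins were read for comparison. For fish oil against the other 3 fats, Met, a receptor tyrosine kinase on the Cav1 side, had a log2 difference of 0.03 (SE 0.15), and Capza2, an actin capping protein beyond it, 0.07 (SE 0.14). On the Cav2 side, Tes gave 0.41 (SE 0.61) on the 1 of its 3 probe sets that was tested, and Tfec gave -0.15 (SE 0.35) and 0.12 (SE 0.21). Lard against chow gave -0.27 (SE 0.18) for Met and -0.27 (SE 0.17) for Capza2. The largest difference of Met was 0.61 (SE 0.18) for olive oil against lard. None of the neighbours was called by limma in any of the 7 comparisons, where 0% to 0.424% of all probe sets were called.

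The genes most like the brightest Cav2 probe set, 1377642_at, were sought among 14251 other probe sets with 1 symbol, by Pearson's r over the 10 arrays. C5, a complement component made by hepatocytes, had r = 0.95, as had Kng2l1, a kininogen. Fgl1, a protein secreted by the liver, Aff4, a transcription elongation factor, and Mb21d2 had r of 0.92. Fgl1 signal was 2220.4 ± 324 under fish oil, 2809.1 ± 557 under coconut fat, 5251.2 ± 2671 under olive oil, 4396.4 ± 922 under lard and 2451.7 ± 232 under chow (SD, n = 2 each), with olive oil and lard highest, fish oil lowest and a wide spread between the olive oil arrays, as for Cav2. For C5 the means were 747.1 ± 20.8 under fish oil, 952.4 ± 172 under coconut fat, 1445.8 ± 386 under olive oil, 1157.65 ± 97.8 under lard and 917.3 ± 212 under chow.

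For the brightest Cav1 probe set, 1393281_at, the most alike were Slc16a7, a monocarboxylate transporter, with r = 0.95, Dram2, an autophagy protein, with 0.93, Yars2, the mitochondrial tyrosyl-tRNA synthetase, with 0.92, Atp6v1h, a subunit of the vacuolar proton pump, with 0.91, and Sec16a, a protein of endoplasmic reticulum exit sites, with 0.90. None was among the 5 most like Cav2. Both sets of names are the highest of 14251 values of r on 10 arrays, and they are given as a description with no test.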

How the data were processed

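Total RNA of frozen liver was labelled with biotin and hybridised to Affymetrix arrays, per the labels' protocols. The deposited table holds linear MAS5 signal intensity, and the submitters' processing notes name MAS5 without a version. Each array had a 2% trimmed mean of about 100, and no further scaling was applied.

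Signals were turned into log2(signal + 3.1), with the 10th percentile of all values as offset, and the 40% of probe sets with the lowest mean (below 17.8) were left out, 12417 of 31042. The 10 arrays entered one limma fit with a term for each diet (limma 3.58.1, R 4.3.3, intensity trend, 5 residual degrees of freedom), with Benjamini-Hochberg adjustment over 18625 probe sets at 0.05. The scripts were tested on simulated data. Symbols came from the platform annotation (20826 probe sets with 1 symbol, 436 with several, 9780 with none), and promoter windows from RefSeq.

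The members and gene lists were chosen with earlier results of these data known. Named genes were all member probe sets, every called list gene or else the 4 with the largest difference for fish oil against the other fats, and the 5 probe sets most like each caveolin. Replicate numbers in the titles did not pair the arrays: over 10 pairs of diets, deviations from the diet means correlated between -0.03 and 0.08, and 0 pairs passed 0.1. Alternatives changed the scaling, the offset, the filter, the trend, the block, the summary per gene and the arrays used.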

Additional observations from a re-analysis of the deposited data

How the results depend on the processing

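The 49 caveolin differences (7 probe sets in 7 comparisons) were recomputed under 17 alternatives, which gave 805 values, since the 60% filter left out the Cav1 probe sets and 1386261_x_at. The sign changed in 35 values, 23 of Cav1 and 12 of Cav2. Cav2 kept its sign in all of them for fish oil against the other fats, for fish oil, lard and olive oil against chow, and for coconut fat against lard and olive oil. No alternative gave a called member in the 5 comparisons without fish oil. The fish oil difference on Cav2 probe set 1390800_a_at ran from -2.57 to -2.09 on the log2 scale; it is the value that chose the genes, so no test of it is given. With 2 arrays a diet, leaving one out assumes that the lone array varies like the others.

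Over all probe sets, fish oil against the other fats gave 79 calls, or 6 without the intensity trend, and fish oil against chow 29, or 7 without it. Lard against chow gave 3 calls, 0 after quantile normalization, 1 without the trend and 0 with the replicate block. Olive oil against chow gave 5, with 11 under no filter, 16 under the 60% filter and 0 without the trend. Leaving out each array in turn gave 31 to 113 calls for fish oil against the other fats, 5 to 41 for fish oil against chow, 0 to 6 for lard, 3 to 23 for olive oil and 0 to 3 for coconut fat against chow, 0 to 1 for coconut fat against lard and olive oil, and 0 to 4 for olive oil against lard. Of the higher and lower calls for fish oil against the other fats, the 75th percentile shift gave 44 and 35, against 35 and 44 without it. The cause of these changes was not tested. With the replicate number as a block, fish oil gave 60 calls against the other fats and 20 against chow.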
